A study of Mus musculus with 9 samples.

Results

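Medullary thymic epithelial cells of C2TA knockout mice were compared with those of C2TA wild type mice across all genes named on the array. The 6 samples are the 3 of 9 that the submitters titled as knockout (replicates 7, 8 and 9) and the 3 titled as wild type (replicates 1, 2 and 3). The other 3, a C2TA knockdown, entered through the shared estimate of the spread and the choice of 1 probe set per gene. They also entered the array checks and the alternative settings. All 21536 probe sets with a gene symbol were taken, out of 35552 on the array, and they stand for 19593 genes. The cells of all groups came from the thymus of female Balb/c mice 4 to 6 weeks old and carry CD80 at the surface, a gate for mature medullary epithelium. The knockout mice lacked C2TA and the wild type mice had it intact. The sources used here do not give the deleted allele, its breeding history or the number of mice behind a sample. The labels call the samples biological replicates, and p-values refer only to the spread among them.

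Medullary thymic epithelial cells transcribe genes of many peripheral tissues and display the products to developing T cells, which are deleted or diverted to a regulatory fate if they bind them strongly. Display to CD4 T cells runs through MHC class II molecules, whose genes are switched on by C2TA (gene Ciita), a coactivator without DNA binding of its own that docks on the RFX, CREB and NF-Y factors at the X and Y boxes of class II promoters. The invariant chain Cd74 escorts new class II molecules to the endosome, where H2-M exchanges the invariant chain remnant for peptide and H2-O restrains H2-M. The study set mice with silenced or absent C2TA beside wild type mice to ask what these epithelial cells contribute themselves to the tolerance of CD4 T cells.

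Promoters of class II genes that fell in the knockout are shown because C2TA is known to act through their X and Y boxes. Promoter windows of 300 bases, 250 before to 50 after the annotated start, were held by the RefSeq table of GRCm38.p6 for 5 of the 8 measured class II genes. In the 4 windows printed here, 5′ to 3′ on the strand of the gene, capitals mark the Y box letters TGATTGG and the X box letters AACNGATG. They lie at chr17:34287774-34288073 (minus strand) for H2-Aa, chr17:34305617-34305916 (plus strand) for H2-Eb1, chr17:34144999-34145298 (plus strand) for H2-DMb2 and chr17:34092129-34092428 (plus strand) for H2-Oa.
H2-Aa: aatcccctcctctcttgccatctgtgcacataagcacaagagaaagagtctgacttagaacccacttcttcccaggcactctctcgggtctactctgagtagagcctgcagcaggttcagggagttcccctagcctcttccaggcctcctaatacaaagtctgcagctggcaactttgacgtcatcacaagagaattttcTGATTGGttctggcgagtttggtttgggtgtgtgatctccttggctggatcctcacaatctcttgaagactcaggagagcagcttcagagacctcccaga
H2-Eb1: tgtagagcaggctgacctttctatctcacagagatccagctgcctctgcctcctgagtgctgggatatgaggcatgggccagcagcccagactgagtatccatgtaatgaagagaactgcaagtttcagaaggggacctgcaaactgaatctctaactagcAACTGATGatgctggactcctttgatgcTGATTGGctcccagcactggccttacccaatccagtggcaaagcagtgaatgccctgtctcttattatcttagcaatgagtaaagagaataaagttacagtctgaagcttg
H2-DMb2: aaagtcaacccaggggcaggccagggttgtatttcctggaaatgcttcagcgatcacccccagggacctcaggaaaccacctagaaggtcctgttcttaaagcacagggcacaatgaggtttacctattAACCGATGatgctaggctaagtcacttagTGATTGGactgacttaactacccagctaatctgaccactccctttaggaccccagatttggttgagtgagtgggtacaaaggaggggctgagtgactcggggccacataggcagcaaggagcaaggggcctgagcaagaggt
H2-Oa: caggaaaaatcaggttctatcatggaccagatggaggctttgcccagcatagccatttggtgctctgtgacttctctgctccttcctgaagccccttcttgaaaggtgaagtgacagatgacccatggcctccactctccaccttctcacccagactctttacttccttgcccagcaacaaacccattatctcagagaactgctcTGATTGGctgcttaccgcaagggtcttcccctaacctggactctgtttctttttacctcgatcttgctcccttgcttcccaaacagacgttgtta

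The Y box letters began 50 bases before the annotated start in H2-Aa, 61 in H2-Eb1, 92 in H2-DMb2 and 45 in H2-Oa. The X box letters preceded the Y box in H2-Eb1 and H2-DMb2, at 89 and 121 bases before the start, and were not found in the H2-Aa and H2-Oa windows. Neither motif was found in the 2 windows of H2-DMa. Both motifs were searched on both strands, do not overlap each other, and were chosen after these promoters had been viewed. Of 32851 windows of this length in the table, 7.82% held the Y box letters, 2.32% the X box letters and 0.186% both. A match describes the sequence and shows no binding. Only these exact letters were searched, so a window without them may still hold an X or Y box with other letters.

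The cells were checked against their label on the log2 scale of the array, on which a difference of 1 is a doubling. Epcam, an adhesion molecule of epithelium, had log2 levels of 8.69, 8.94 and 9.19 on knockout arrays 7, 8 and 9, against 8.73, 9.36 and 9.11 on wild type arrays 1, 2 and 3. Aire, which drives tissue antigen transcription in mature medullary cells, had 9.76, 9.71 and 9.86 in the knockout and 9.60, 10.04 and 9.93 in wild type. Psmb11, the cortical thymoproteasome subunit, lay at 2.88 on all 3 knockout arrays and between 2.75 and 3.09 on the wild type arrays. For each of these genes the groups overlapped, and the differences were -0.13 (SE 0.18) for Epcam, -0.08 (SE 0.14) for Aire and -0.03 (SE 0.15) for Psmb11. Cd80, the molecule of the gate, had 7.22, 7.51 and 7.69 in the knockout and 6.99, 8.08 and 7.73 in wild type.

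Array medians over genes lay between 4.48 and 4.54. The interquartile range was 2.20 on wild type 1 and 2.37 on knockout 7, while the other arrays, the knockdown arrays included, lay between 2.53 and 2.80. Wild type 1 stood more than 1 above both other wild type arrays in 194 genes and more than 1 below both in 599. Of the 31 gene lists used here, 17 had a median difference that changed sign when 1 knockout or wild type array was left out, none of them beyond 0.19 in size, and such medians give no direction.

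Across the 19593 genes, the genes that passed as lower in the knockout were class II genes. In limma with Benjamini-Hochberg adjustment over all genes, 9 genes passed at 0.05, or 0.0459%, of which 8 were lower (0.0408%) and 1 was higher (0.0051%). All 8 lower genes were MHC class II genes or their chaperones, and they were all of the measured members among the 11 genes listed for that pathway, while H2-DMb1, H2-Eb2 and H2-Ob were not analysed here. With array weights 71 genes passed, 33 higher and 38 lower, and with the interquartile range of the arrays as a covariate 30 passed, 7 higher and 23 lower, the 8 class II genes included each time. Before adjustment, 343 higher and 311 lower genes had a limma p under 0.05. The 8 class II genes were also the 8 genes that lay more than 1 below the wild type mean on every knockout array, and 0 genes lay more than 1 above it on every knockout array. Over all genes the median difference was 0.0075, and 51.9% of genes had a higher mean in the knockout. With 0.0459% of all genes called, most lists of the sizes used here would hold 0 calls. Thus 0 calls in a list says little about its members.

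**Figure D1:**
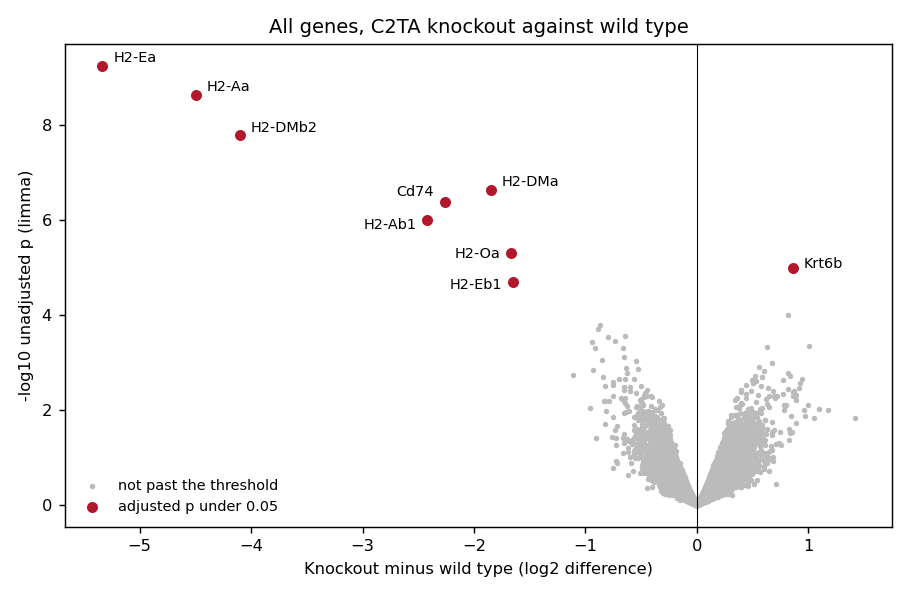
Difference between knockout and wild type means (x axis, log2) against the unadjusted limma p (y axis, -log10) for 19593 genes; red points are the 9 genes past the adjusted threshold. The 8 class II genes stand to the left at -5.34 to -1.65 and Krt6b stands to the right at 0.86, while the grey points form the bulk around 0.

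Both alpha chains of the classical class II molecules, which with the beta chains form the peptide-binding groove, fell. H2-Ea, the alpha chain of I-E, had log2 levels of 5.42, 5.64 and 5.50 in the knockout, against 10.27, 11.23 and 11.06 in wild type. It fell by 5.34 (SE 0.22, 40.4-fold), to 2.48% of the wild type level, with a limma adjusted p of 1.12e-05. In the RefSeq table, which is of C57BL/6J, H2-Ea is annotated as a pseudogene, whereas Balb/c mice are known to express it. H2-Aa, the alpha chain of I-A, had 5.88, 6.20 and 6.29 in the knockout, against 10.12, 10.99 and 10.75 in wild type. It fell by 4.50 (SE 0.21, 22.6-fold), to 4.42% of the wild type level, with a limma adjusted p of 2.26e-05. For both alpha chains the 3 knockout arrays lay close together and far below every wild type array.

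The beta chains that pair with them fell too, with smaller differences. H2-Ab1, the partner of H2-Aa, had 7.46, 7.73 and 8.16 in the knockout, against 9.84, 10.57 and 10.19 in wild type. It fell by 2.42 (SE 0.22, 5.35-fold), to 18.7% of the wild type level, with a limma adjusted p of 0.00323, and 0.0923 in a fit of only the 6 knockout and wild type arrays. H2-Eb1, the partner of H2-Ea, had 8.96, 8.97 and 9.25 in the knockout, against 10.15, 11.09 and 10.89 in wild type. It fell by 1.65 (SE 0.21, 3.13-fold) with a limma adjusted p of 0.0445, the weakest of the 8 calls. The groups did not overlap for either beta chain. H2-Eb1 missed the threshold under 12 of 22 alternative settings, among them without any 1 array other than wild type 1.

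Cd74 had 8.42, 8.75 and 9.13 in the knockout, against 10.83, 11.29 and 10.96 in wild type. It fell by 2.26 (SE 0.19, 4.78-fold), to 20.9% of the wild type level, with a limma adjusted p of 0.00163, and 0.0731 in a fit of only the 6 knockout and wild type arrays. Cd74 is the one member measured here that lies outside chromosome 17, on chromosome 18.

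The subunits that edit or restrain peptide loading fell as well. H2-DMb2, a beta chain of H2-M, had 5.69, 5.56 and 5.47 in the knockout, against 9.09, 10.05 and 9.90 in wild type. It fell by 4.10 (SE 0.24, 17.2-fold) with a limma adjusted p of 0.000109, and since H2-DMb1 is a near-identical copy the value is uncertain as to the gene. H2-DMa, the alpha chain of H2-M, had 3.91, 3.82 and 3.67 in the knockout, against 5.87, 5.68 and 5.38 in wild type. It fell by 1.85 (SE 0.14, 3.60-fold) with a limma adjusted p of 0.00113. Its knockout levels lay below the array medians of 4.48 to 4.54, so the size of its fall may be compressed by the processing. H2-Oa, the alpha chain of H2-O, had 5.70, 5.92 and 6.10 in the knockout, against 7.16, 7.83 and 7.74 in wild type. It fell by 1.67 (SE 0.18, 3.18-fold) with a limma adjusted p of 0.014, and it missed the threshold under 10 of 22 alternative settings, again including every omission of 1 array other than wild type 1. No pair of groups overlapped among these subunits.

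**Figure D2:**
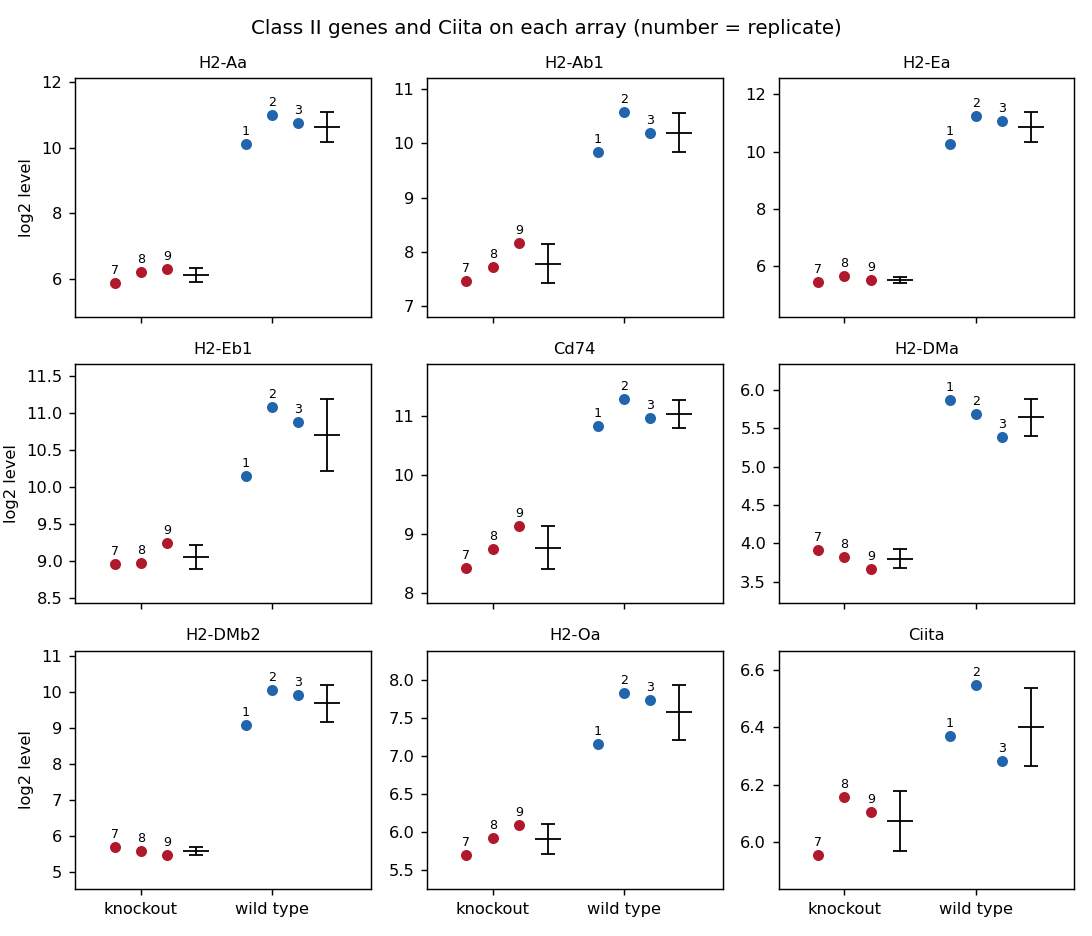
Log2 level (y axis) of the 8 measured class II genes and Ciita on each array, knockout on the left and wild type on the right; numbers are replicates, and bars to the right of the points give mean and SD (n = 3 each). For each of the 8 class II genes all knockout points lie below all wild type points, and for Ciita the groups are 0.33 apart.

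The 3 knockout arrays differed among themselves in class II levels, though by less than they differed from wild type. The range over the knockout arrays was smaller than the difference between the groups for 8 of 8 genes. Knockout 9 was the highest of the knockout arrays for 5 of the 8 genes and knockout 7 the lowest for 6. The spread was widest for Cd74, with 0.72 between knockout 7 and knockout 9, and for H2-Ab1, with 0.70, against 0.21 for H2-Ea. H2-DMa and H2-DMb2 ran the other way, with the highest of their 3 knockout levels on knockout 7. The median difference of the 8 genes was -2.34, with -2.67 on knockout 7, -2.38 on knockout 8 and -2.01 on knockout 9. In wild type, array 1 was the lowest for each of these genes except H2-DMa. Without wild type 1 and knockout 7 together the median was -2.31 and all 8 genes passed in limma.

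Ciita itself had log2 levels of 5.96, 6.16 and 6.11 in the knockout, against 6.37, 6.55 and 6.28 in wild type. The groups did not overlap, as in 449 genes or 2.29% in the lower direction, 498 genes or 2.54% in the higher direction and 4.83% in all. The difference of -0.33 (SE 0.16) did not pass, with an unadjusted limma p of 0.0658. Whether the probes cover the deleted stretch of Ciita is not known, and the value therefore does not serve as a check of the label. The 10 measured genes on each side of Ciita on chromosome 16 had differences between -0.11 and 0.38, of which 0 passed and 0 had groups without overlap. The highest was Litaf, a lysosomal membrane protein. Socs1, an inhibitor of cytokine signalling near Ciita, had 0.14 (SE 0.17).

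The factors on which C2TA docks showed no call. Of the 8 measured genes on this list, Ciita included, 0 passed, against 0.0459% of all genes, and the median difference was 0.038. Rfx5, the DNA-binding subunit of RFX, had log2 levels of 4.98, 5.48 and 5.51 in the knockout, against 5.62, 5.93 and 5.86 in wild type. The knockout arrays lay below the wild type arrays without overlap, and the difference was -0.48 (SE 0.16, unadjusted limma p of 0.0133). The other RFX subunits had 0.25 (SE 0.14) for Rfxank and 0.06 (SE 0.10) for Rfxap. The NF-Y subunits Nfya, Nfyb and Nfyc had -0.02 (SE 0.14), 0.24 (SE 0.32) and 0.06 (SE 0.19), and Creb1 had 0.02 (SE 0.13).

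On chromosome 17 the class II genes are interleaved with genes of other functions, which gives a view of the losses along the chromosome. Between H2-K1 and Notch4, 23 genes were measured, of which 7 were class II genes. The other 16 had differences between -0.75 and 0.36, and 0 of them passed. Tap1 and Tap2, the peptide transporter of class I presentation, and Psmb8 and Psmb9, immunoproteasome subunits, lie between the class II genes H2-DMb2 and H2-Ab1. Psmb9 had a difference of 0.32 (SE 0.16), Tap1 0.36 (SE 0.19), Psmb8 0.35 (SE 0.16) and Tap2 0.35 (SE 0.20). Brd2, a chromatin reader between H2-Oa and H2-DMa, had -0.01 (SE 0.19).

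Genes next to H2-Ea on the other side, butyrophilin-like genes among them, had lower means. Btnl2, which restrains T cells, had log2 levels of 4.23, 4.11 and 4.41 in the knockout, against 4.34, 4.99 and 4.72 in wild type, a difference of -0.43 (SE 0.17). Btnl1 had 4.06, 4.10 and 4.10 in the knockout, against 4.47, 5.02 and 4.39 in wild type, a difference of -0.54 (SE 0.17). BC051142 had 4.73, 4.77 and 4.59 in the knockout, against 4.93, 5.73 and 5.68 in wild type, a difference of -0.75 (SE 0.21). Btnl7-ps had a difference of -0.13 (SE 0.15), with groups that overlapped. The groups did not overlap for Btnl1 and BC051142, and among the 16 genes also not for Tap2, where the knockout was higher. Among all genes 4.83% had groups without overlap, 2.29% lower and 2.54% higher. None of these neighbours passed, and they were singled out after their values were seen.

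**Figure D3:**
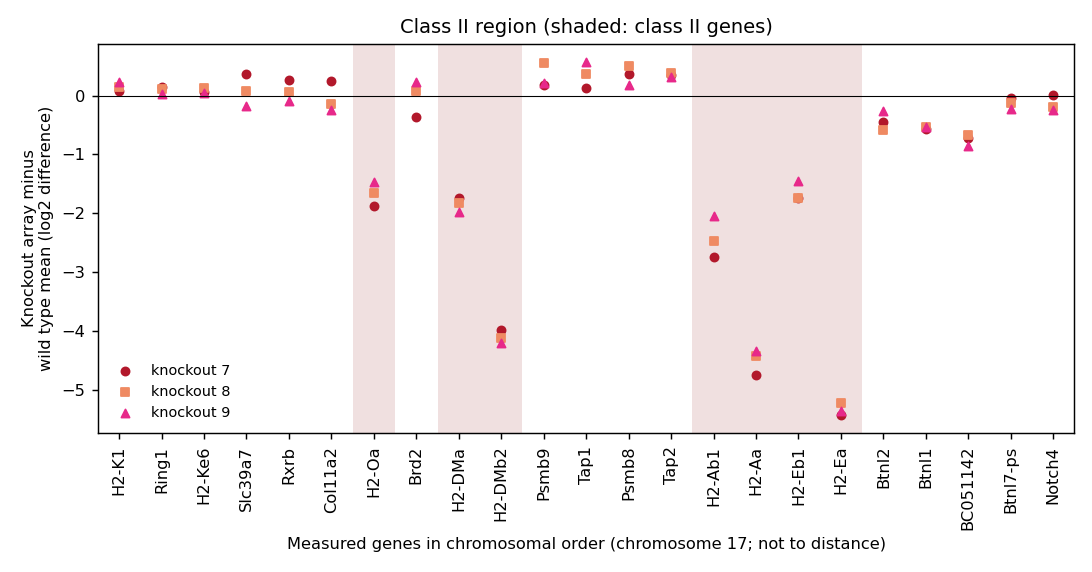
Each knockout array minus the wild type mean (y axis, log2) for the 23 measured genes from H2-K1 to Notch4 in chromosomal order (x axis, not to distance), with class II genes shaded. The 7 class II genes lie between -5.43 and -1.46 on the single arrays, and the 16 other genes scatter around 0, with BC051142 lowest at -0.75 on average.

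Presentation steps that do not depend on class II transcription showed 0 calls, against 0.0459% of all genes. In the endosomal list, 7 of 14 measured members had higher means and 7 lower, with a median of 0.0032, which became -0.11 without wild type 1 and 0.16 without wild type 2. Ctsb, a lysosomal protease, had log2 levels of 7.84, 8.09 and 8.41 in the knockout, against 7.32, 7.72 and 7.82 in wild type, a difference of 0.50 (SE 0.18). The groups did not overlap, and the gene did not pass. Ctss, the protease that removes the invariant chain in antigen-presenting cells, had 0.22 (SE 0.29), and Ifi30, a thiol reductase of the endosome, 0.33 (SE 0.19). Autophagy genes, which feed cytosolic proteins to class II compartments, had a median difference of -0.039, 12 of the 20 being lower, and -0.18 without wild type 1 or 0.063 without wild type 2.

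The class I list had 0 calls and a median of 0.086, and 15 of its 20 members were higher. Leaving out wild type 1 gave a median of 0.0285, and leaving out wild type 2 gave 0.21. Nlrc5, a relative of C2TA that activates class I genes, had log2 levels of 6.04, 6.35 and 6.12 in the knockout, against 5.58, 5.80 and 5.92 in wild type. The arrays did not overlap, with a difference of 0.41 (SE 0.16, unadjusted limma p of 0.0333). H2-K1 had 0.16 (SE 0.14), H2-D1 0.03 (SE 0.16) and B2m, the light chain of class I, 0.06 (SE 0.18). Proteasome catalytic subunits had a median of 0.26, with 8 of 9 members higher, and 0.066 without wild type 1 or 0.17 without knockout 8. The 7 genes that other work has tied to C2TA outside class II had a median of 0.066 and 0 calls, among them Plxna1, a semaphorin receptor, with -0.02 (SE 0.14), and the collagen genes Col1a1 with 0.07 (SE 0.10) and Col1a2 with 0.14 (SE 0.14).

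Krt6b, a keratin of activated and wounded epithelium, was the one gene called higher. It had log2 levels of 5.52, 5.27 and 5.41 in the knockout, against 4.51, 4.55 and 4.55 in wild type. It rose by 0.86 (SE 0.10, 1.82-fold) with a limma adjusted p of 0.0246. The 3 wild type values were within 0.048 of each other, and the groups were well apart. The call was lost under 12 of 22 alternative settings, including every omission of 1 array other than wild type 1 and the omission of wild type 1 and knockout 7 together, with limma adjusted p-values between 0.00104 and 0.351 over all settings. Krt6a is a near-identical copy, so the value is uncertain as to the gene, and Krt6a's own probe set had 0.21 (SE 0.23).

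No other keratin on the lists passed. Stress and simple keratins had a median of -0.05, with 7 of 14 higher, and -0.20 without wild type 1 or 0.028 without wild type 2. Krt23, a keratin of simple epithelium, had 5.54, 5.95 and 6.00 in the knockout, against 6.25, 6.72 and 6.63 in wild type, and Krt18 had 8.95, 9.03 and 8.94 against 9.12, 9.39 and 9.33. Both had groups without overlap and differences of -0.70 (SE 0.17) and -0.30 (SE 0.11) that did not pass. In the cornified list the median was -0.068, with 10 of 15 lower and 0 calls, which became -0.28 without wild type 1, -0.20 without knockout 9, 0.013 without knockout 7 and 0.076 without wild type 2. Calm4, a calcium-binding protein of differentiating epidermis, had 0.50 (SE 0.13) and Krt79 0.40 (SE 0.11). Krt77, the lowest member of the cornified list, had -0.48 (SE 0.16), with groups that overlapped.

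Among the genes with the next smallest p, several had groups without overlap but none passed. Slc15a2, an oligopeptide transporter, had log2 levels of 3.41, 3.63 and 3.57 in the knockout, against 2.84, 2.84 and 2.46 in wild type, a difference of 0.82 (SE 0.13) (limma adjusted p of 0.194). Gpr183, an oxysterol receptor that positions immune cells, had 5.03, 5.24 and 5.38 in the knockout, against 4.48, 4.66 and 4.62 in wild type, a difference of 0.63 (SE 0.12). Gc, the vitamin D carrier of plasma, had 0.53 (SE 0.12), Rdh9, a retinol dehydrogenase, 0.55 (SE 0.12), Hpse, the enzyme that cuts heparan sulfate, 0.60 (SE 0.14) and Mctp1 0.83 (SE 0.20). In the lower direction Flg2, a filaggrin relative of the cornified layer, had 3.54, 3.61 and 3.66 in the knockout, against 4.20, 4.54 and 4.67 in wild type. Depp1, a target of FOXO factors, had 4.87, 4.71 and 5.03 in the knockout, against 5.47, 6.03 and 5.76 in wild type. Their differences were -0.87 (SE 0.14) and -0.88 (SE 0.15), and both passed without wild type 1, with array weights and with the interquartile range of the arrays as a covariate. Genes of the Oas1 family, sensors of double-stranded RNA, had -1.11 (SE 0.26) for Oas1f, -0.93 (SE 0.21) for Oas1g, -0.65 (SE 0.12) for Oas1h and -0.74 (SE 0.28) for Oas1a. They are near-identical copies whose probes may share signal, none passed, and Oas1f, Oas1g and Oas1h were named after their values were seen.

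Tissue antigens, the products these cells display, had lower means in most members, with 0 calls against 0.0459% of all genes. Liver plasma proteins had a median of -0.22, with 18 of 21 lower, and -0.22, -0.22 and -0.20 on knockout 7, 8 and 9. Among all genes 48.1% had a lower mean. Groups did not overlap in 4 of the 21, all lower, against 2.29% of all genes in that direction. Apob, the lipoprotein scaffold, had log2 levels of 4.75, 4.92 and 4.92 in the knockout, against 5.32, 5.73 and 5.34 in wild type, a difference of -0.60 (SE 0.16). Hp, or haptoglobin, had 5.24, 5.54 and 5.54 in the knockout, against 5.86, 5.77 and 6.07 in wild type, a difference of -0.46 (SE 0.13). Alb, or albumin, had 5.09, 5.23 and 5.02 in the knockout, against 5.10, 6.10 and 5.69 in wild type, and there the groups overlapped, with -0.52 (SE 0.22). The median of the list stayed between -0.27 and -0.15 over the alternatives run on lists. Gc, the plasma protein named above, was not on this list. It had a higher mean in the knockout, by 0.53 (SE 0.12), without overlap.

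Islet and gut hormones had a median of -0.18, with 13 of 17 lower, which became 0.002 without wild type 2 and -0.11 without knockout 7. Tac1, the precursor of substance P, had 5.32, 6.09 and 5.30 in the knockout, against 5.48, 7.11 and 6.83 in wild type, so that wild type 1 lay among the knockout arrays. Gcg, or glucagon, had -0.52 (SE 0.16), Sst, or somatostatin, -0.28 (SE 0.17) and Ins2, or insulin, 0.04 (SE 0.12). Milk, saliva and skin antigens had a median of -0.084, with 14 of 17 lower. Csn1s2a, a milk casein, had 4.41, 5.36 and 5.53 in the knockout, against 6.05, 6.43 and 5.71 in wild type, a difference of -0.96 (SE 0.29) without overlap. Bpifa2, a salivary protein, had -0.48 (SE 0.14).

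Lists of epithelial subsets had medians near 0, apart from the immature medullary list. Epithelial identity genes had a median of -0.038, mature medullary genes 0.016 and cortical genes -0.087, each with 0 calls. Leaving out wild type 1 gave -0.14 for mature medullary and -0.09 for epithelial identity genes, and leaving out wild type 2 gave 0.12 and 0.018. Ccl22, a chemokine of mature medullary cells that attracts CCR4-bearing thymocytes, had log2 levels of 6.35, 6.83 and 7.10 in the knockout, against 7.08, 8.03 and 7.45 in wild type. Knockout 9 just overlapped wild type 1, and the difference was -0.76 (SE 0.25, unadjusted limma p of 0.014). Immature medullary genes had a median of 0.18, with 9 of 11 higher, and 0.054 without wild type 1. Krt5 and Krt14, keratins of basal cells, had 0.18 (SE 0.18) and 0.22 (SE 0.13). Tbata, a thymic epithelial gene placed on the cortical list, had 7.49, 7.60 and 7.95 in the knockout, against 8.10, 8.29 and 8.14 in wild type, with -0.50 (SE 0.15). Tuft cell genes had a median of -0.077, and Dclk1, a tuft cell kinase, had -0.45 (SE 0.18).

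Signals that T cells receive from these cells, and signals the cells receive, also showed 0 calls, against 0.0459% of all genes. Costimulatory and coinhibitory ligands had a median of -0.061, with 12 of 18 lower, among them Tnfsf15 with -0.47 (SE 0.13). The NF-kB list, the pathway downstream of RANK and CD40 in these cells, had a median of -0.021, and chemokines had 0.014. Without wild type 1 these were -0.14 and -0.13, and without wild type 2 they were 0.12 and 0.071. Interferon response genes had a median of 0.19, with 21 of 25 higher, and medians of 0.05, 0.26 and 0.34 on knockout 7, 8 and 9. Leaving out wild type 1 gave 0.045, knockout 9 0.11 and wild type 3 0.31. The list had 4 lower members, and the lowest was Oas1a, with -0.74 (SE 0.28) and groups that overlapped. The other Oas1 genes named above, Oas1f, Oas1g and Oas1h, were lower too. Cxcl9, which attracts activated T cells, had 8.30, 8.75 and 9.11 in the knockout, against 7.63, 8.16 and 7.92 in wild type, a difference of 0.82 (SE 0.21). The groups did not overlap, and the gene did not pass. Immediate early genes, which respond to handling of cells, had a median of -0.043, with 19 of 23 lower, and -0.18 without knockout 9. Heat shock proteins had -0.19, which became -0.075 without knockout 7 and 0.019 without wild type 2.

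Cell cycle genes lay above the wild type mean, most of all on knockout 8, with 0 calls. DNA replication genes had a median of 0.34, with 24 of 25 higher and 7 of 25 higher without overlap, and mitosis genes a median of 0.50, with 23 of 24 higher and 5 of 24 higher without overlap. Over all genes 2.54% were higher without overlap and 0.0051% were called higher. By array, the replication medians were 0.11 on knockout 7, 0.64 on knockout 8 and 0.29 on knockout 9, and the mitosis medians 0.17, 0.91 and 0.43. Knockout 8 held the highest knockout level for 22 of the 25 replication genes and all 24 mitosis genes. When knockout 8 was left out the replication median was 0.21 and the mitosis median 0.28, and when knockout 7 was left out they were 0.46 and 0.65.

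Ccna2, cyclin A2 of S phase and mitosis, had log2 levels of 5.82, 6.50 and 6.02 in the knockout, against 4.96, 5.40 and 4.95 in wild type, a difference of 1.01 (SE 0.19, limma adjusted p of 0.488). Mcm3, of the replicative helicase, had 4.93, 5.63 and 5.24 in the knockout, against 4.33, 4.71 and 4.43 in wild type, a difference of 0.78 (SE 0.19). Top2a, which untangles chromosomes, had 6.30, 7.46 and 6.61 in the knockout, against 5.30, 6.15 and 6.00 in wild type, a difference of 0.97 (SE 0.32). All 3 had every knockout array above every wild type array, with knockout 8 highest. The replication-dependent histone genes H4c6 and H3c11 had 0.82 (SE 0.19) and 0.95 (SE 0.23), and H3c11 has copies of near-identical sequence. Ccnb1, the mitotic cyclin B1, had 1.05 (SE 0.36), while Ttk, a spindle checkpoint kinase, had -0.0031 (SE 0.21).

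Thymocyte genes stood high on the same arrays. The list had a median of 0.38, with 22 of 25 higher, 0 calls and 0 members without overlap. By array the medians were -0.068 on knockout 7, 0.88 on knockout 8 and 0.44 on knockout 9. The mean log2 level of the 25 genes was 4.65, 5.57 and 5.29 on knockout 7, 8 and 9, against 4.80, 4.66 and 4.87 on wild type 1, 2 and 3. Rag1, which cuts antigen receptor genes in immature lymphocytes, had 5.30, 6.78 and 6.52 in the knockout, against 4.92, 5.08 and 5.31 in wild type. Cd8a, the alpha chain of the CD8 coreceptor, had 5.74, 7.13 and 6.69 in the knockout, against 5.71, 5.49 and 5.89 in wild type. In both genes knockout 7 lay among or beside the wild type arrays and the other knockout arrays lay above them. The part of thymocyte RNA in the cell cycle levels was not tested, and in such bulk samples fewer cells of a type and less RNA per cell cannot be told apart. Without knockout 7 the thymocyte median was 0.71, and without knockout 8 it was 0.17. Trgv2, a T cell receptor gamma segment, had 3.73, 5.43 and 5.13 in the knockout, against 4.04, 3.94 and 3.83 in wild type. It passed as higher in limma once knockout 7 was left out, the one such gain.

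Myeloid genes had 0 calls, against 0.0459% of all genes, and differed between the knockout arrays. The dendritic cell and macrophage list had a median of 0.11, with 19 of 23 higher, and -0.099, 0.18 and 0.16 on knockout 7, 8 and 9. It was 0.057 without knockout 9 and 0.066 without wild type 2. The mean log2 level of the 23 genes was 4.69, 4.93 and 5.05 in the knockout, against 4.79, 4.68 and 4.77 in wild type. Mpeg1, a pore-forming protein of macrophages, had 4.19, 5.60 and 5.95 in the knockout, against 4.33, 2.96 and 4.19 in wild type. Its difference of 1.42 (SE 0.48) was the highest of all 19593 genes, and it did not pass. Markers of B cells had a median of -0.002, of endothelium and mesenchyme 0.019, and of erythroid cells 0.02.

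The gene lists set side by side show how the knockout arrays differ. Knockout 7 lay below the other knockout arrays in most lists, and knockout 8 above them in the cell cycle and thymocyte lists. The interquartile range was 2.37 on knockout 7, against 2.77 and 2.73 on knockout 8 and 9, and its part in these medians was not tested.

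**Figure D4:**
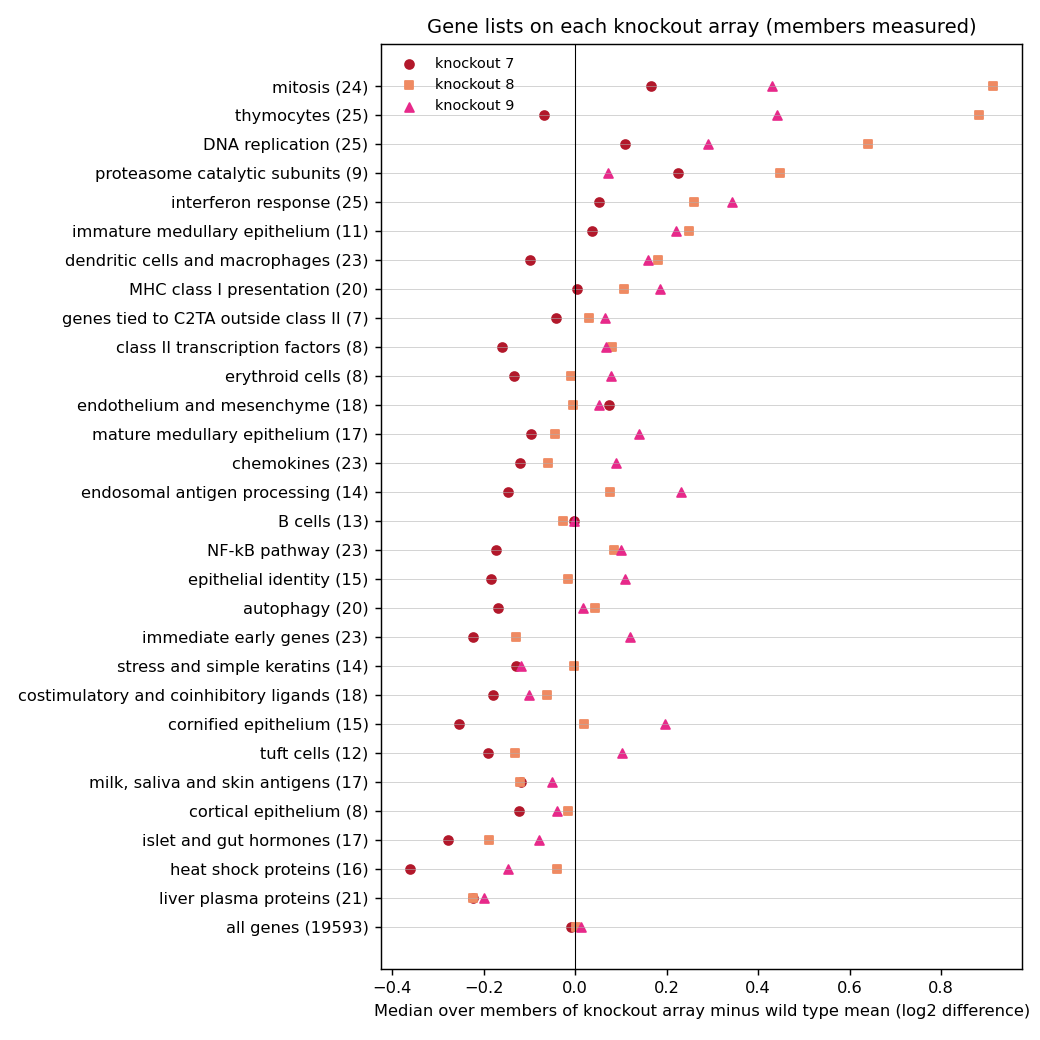
Median over the measured members of each gene list of knockout array minus wild type mean (x axis, log2), one symbol per knockout array; the number of measured members stands in parentheses. Mitosis, thymocyte and DNA replication genes reach 0.91, 0.88 and 0.64 on knockout 8, liver plasma proteins lie at -0.22 to -0.20 on all 3 arrays, and all genes together lie within 0.0114 of 0.

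Genes that set a single knockout array apart were counted as those more than 1 above or below both other knockout arrays. There were 35 above and 34 below on knockout 7, 5 above and 0 below on knockout 8, and 3 above and 2 below on knockout 9. The same count among the wild type arrays gave 194 above and 599 below on wild type 1. It gave 3 above and 2 below on wild type 2, and 1 above and 0 below on wild type 3. The totals on knockout 8 and 9, 5 each out of 19593 genes, were thus no larger than the 5 on wild type 2. Among the 34 genes low on knockout 7 were 6 of the thymocyte list, namely Cd3g, Rag1, Lat, Satb1, Ccr9 and Ptprc, and 1 of the myeloid list, the complement gene C1qc. The largest gaps on the low side belonged to Cd53, a tetraspanin of leukocytes, at 4.61 against 6.45 on each of knockout 8 and 9, and Ptprc, the leukocyte antigen CD45, at 4.70 against 6.95 and 6.51. Cd3g, of the T cell receptor complex, had 5.52 on knockout 7, 7.24 on knockout 8 and 7.06 on knockout 9, against 5.78, 6.06 and 6.18 in wild type. For these leukocyte genes the wild type arrays lay between knockout 7 and the other knockout arrays. The other genes named by size were Nceh1, a lipid hydrolase, and Ccr9, the receptor for the thymic chemokine CCL25, at 4.37 against 5.81 and 6.20.

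On the high side of knockout 7, Cstdc6, of the cystatin family, had 4.41 against 1.85 and 2.01 on knockout 8 and 9. Kcnj14, a potassium channel, had 4.54 on knockout 7 against 3.01 and 3.05, and wild type 1 had 4.63. Fignl2 had 5.19 on knockout 7 against 3.76 and 3.84, and wild type 1 had 4.97. Thus Kcnj14 and Fignl2 were high on the arrays with the 2 narrowest interquartile ranges, 2.37 and 2.20, whose part in these values was not tested. Gm6985 and Kir3dl2 completed the 5 genes, with gaps of 1.43 and 1.36.

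On knockout 8 the 5 high genes were H1f5, a linker histone, Bub1, a spindle checkpoint kinase, Pdcd10, Pclaf, a PCNA-binding factor, and Mcm6, a helicase subunit. H1f5 had 6.90, 8.27 and 6.86 on knockout 7, 8 and 9, against 6.40, 6.45 and 6.62 in wild type. Bub1 had 3.58, 5.14 and 3.78 in the knockout, against 3.74, 3.84 and 3.31 in wild type. Mcm6 had 4.62, 6.17 and 5.17 in the knockout, against 4.35, 4.47 and 4.46 in wild type. Of the 5 genes, Bub1 is on the mitosis list and Mcm6 on the replication list. Pdcd10, a signalling adaptor, at 5.83 on knockout 8 lay beside the wild type range of 5.14 to 5.80, and the other knockout arrays lay below it at 4.26 and 4.61. Fosb, an immediate early gene, was lower on knockout 8, at 6.21 against 7.02 and 7.32, a gap of -0.81 that is short of the count.

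On knockout 9, Siglech, a receptor of plasmacytoid dendritic cells, had 4.85 against 3.09 and 3.67 on knockout 7 and 8, and 3.68, 3.12 and 3.54 in wild type. Ly86, a partner of the RP105 receptor of B cells and myeloid cells, had 5.67 against 4.20 and 4.79, and 3.92, 4.32 and 4.53 in wild type. The interferon-inducible genes Ifi214 and Ifi205 had 3.21 and 3.59 on knockout 9 and at most 2.11 and 2.57 on the other knockout arrays. Fos, an immediate early gene, had 7.39 on knockout 9 against 6.56 on each of the others, and 7.62, 7.34 and 7.22 in wild type. Ly86 and Fos stood 0.88 and 0.84 above the nearer of the other knockout arrays, short of the 1 used for the count. Usp17ld, a deubiquitinase named Dub2a on the array, was the gene lowest on knockout 9, at 5.69 against 8.08 and 7.89, and it varied as widely in wild type, at 4.72, 8.12 and 8.80. Gemin6, of the SMN complex, had 3.61 on knockout 9 against 4.75 and 4.95.

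**Figure D5:**
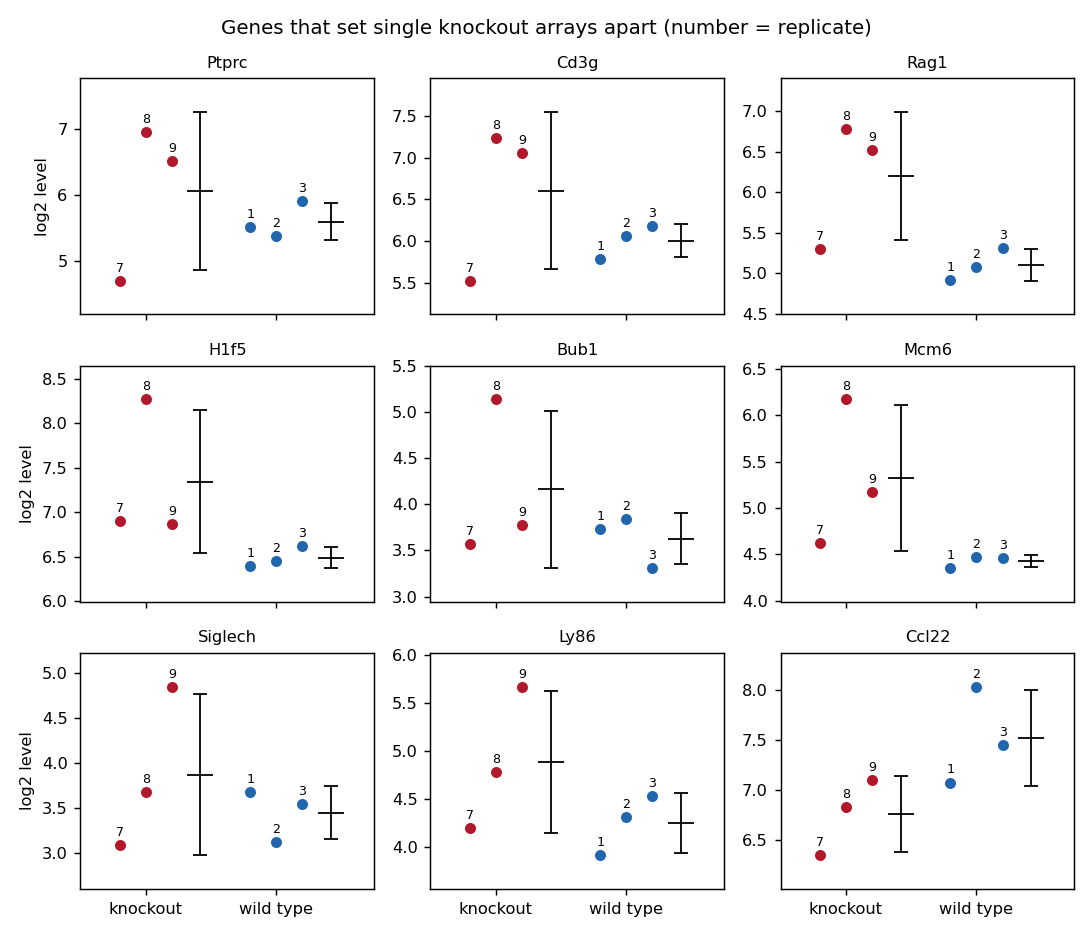
Log2 level (y axis) on each array of genes that set single knockout arrays apart, and of Ly86 and Ccl22, which were not so counted. Knockout is on the left and wild type on the right. Numbers are replicates, and bars to the right of the points give mean and SD (n = 3 each). Leukocyte genes (top row) are lower on knockout 7 than on knockout 8 and 9, and for Rag1 knockout 7 lies within the wild type range. H1f5, Bub1 and Mcm6 (middle row) are highest on knockout 8, and Siglech and Ly86 are highest on knockout 9.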

How the data were processed

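RNA of sorted cells was hybridised to arrays, 1 per sample. The log2 values were made with RMA by the authors, per the submitters' processing notes, which corrects background, normalizes between arrays and compresses differences near background. A second deposited copy was identical in all 35552 values of each of 9 arrays. The deposited linear intensity values and the authors' q-value score, whose comparison is not stated, were not tested. No source used here gives the software version, array build or annotation release.

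Of 35552 probe sets, 21536 have 1 symbol, 0 several and 14016 none. Symbols were updated through RefSeq (GRCm38.p6), with 15189 matched through accessions, 3749 through symbols, 1261 through synonyms and 1337 kept as they were. The probe set with the highest mean stood for each of 19593 genes, a choice for 938 of them, with no filter on low levels. One limma 3.58.1 model (R 4.3.3) covered all 9 arrays, with 6 residual degrees of freedom. P-values are two-sided and adjusted by Benjamini-Hochberg over all genes at 0.05. An exact permutation test of 3 against 3 arrays cannot go below 0.1. Tested on simulated data for knockout against wild type over 19593 genes with 200 changed, the fit recovered 18% of changes of 0.5 on the log2 scale, 52% of 1, 96% of 2 and 100% of 4, with 6 false calls. The simulation gave each gene the same spread on every array. In the data, array weights ran from 0.125 for wild type 1 to 3.90 for wild type 3. Only 9 genes passed in the data, which makes the adjusted threshold stricter than with 200 changed genes. The simulated shares therefore do not give the sensitivity reached in the data. Exactly equal values at the deposited digits occurred on all 3 knockout arrays in 352 genes, and on 2 or 3 of them in 3037, which lowers their measured spread.

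The genes compared and the 31 lists were chosen with earlier results of these data known, and lists received no test. Named genes are Ciita, the class II list, up to 10 genes per direction past the threshold or by smallest p, from each list the calls or the 2 smallest p and its extremes, 5 genes per single knockout array and direction, and 10 neighbours of Ciita per side. Other genes were named after their values were seen, and some that the rule takes are not reported here. The alternatives were other normalizations, filters, probe set rules, variance settings and arrays.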

Additional observations from a re-analysis of the deposited data

Results flagged for a closer look

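One signal lay outside the genes compared, in the 14016 probe sets without a symbol, of which 0 passed in limma and 526 had an unadjusted limma p under 0.05. Probe set 10444284, which the deposited annotation places on the plus strand of chromosome 17 between 34375850 and 34390850 of NCBIM37 as a transcript of ENSMUSG00000041538, had log2 levels of 3.96, 3.75 and 4.20 on knockout 7, 8 and 9, against 5.87, 7.08 and 6.76 on wild type 1, 2 and 3. Every knockout array lay below every wild type array. The difference was -2.60 (SE 0.30, 6.07-fold), with a limma p adjusted over all 35552 probe sets of 0.0636. The tables used here pair no gene symbol with this transcript. Whether it belongs to H2-Ob, H2-DMb1 or H2-Eb2, the class II genes not analysed here, was therefore not settled.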

How the results depend on the processing

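Under 22 alternatives none of the 9 genes called changed direction, and H2-Ea, H2-Aa, H2-DMb2 and H2-DMa passed in limma under each of them. The count of 9 genes was 71 with array weights (33 higher, 38 lower), 30 with the interquartile range of the arrays as a covariate (7 higher, 23 lower) and 4 in a fit of only the 6 knockout and wild type arrays (0 higher, 4 lower, 4 of them class II genes), where H2-Ab1 and Cd74 also missed the threshold. The number of higher genes was 0 after a repeated quantile normalization and over all probe sets of the table, and 2 without wild type 1 and knockout 7 together. Leaving out 1 array at a time gave 6 to 13 genes in all, 0 to 1 higher and 6 to 12 lower, with 6 class II genes called, or 8 without wild type 1. Medians of the class II list ranged from -2.52 to -2.17. No paired analysis was possible because the groups share no replicate numbers. With 3 arrays a group, precision is limited, and smaller differences can be missed.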
